A study of Mus musculus with 2 samples.

Results

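Spp1 encodes osteopontin, a secreted, acidic and heavily phosphorylated protein, and it was the 1 gene followed here, found by its symbol among the 55450 features of the count tables. It was chosen because its counts had already been seen to differ between the libraries, so its levels are given below as a description with no test. The libraries were 2 droplet RNA libraries of single F4/80+ cells, taken by flow cytometry from mouse peritoneal lavage: 1 from Ankrd22-/- mice (labelled Ankrd KO, called the knockout library) and 1 from Ankrd22+/+ mice (labelled Ankrd WT, the wild type library). The knockout mice were made with CRISPR/Cas9. The number, age and sex of the animals, whether animals were pooled and which part of the gene was deleted are not given in the sources used here. After filters, the knockout library kept 6036 cells and the wild type library 5946, at a median depth of 16003.5 and of 14339.0 unique molecular identifiers (UMIs, each standing for 1 captured transcript). Each genotype had 1 library, so every difference is between these libraries, without a replicate check, and the genotype and the library cannot be told apart.

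Osteopontin binds integrins through an RGD motif and, in some settings, the hyaluronan receptor CD44. It was first described in mineralised bone matrix, as a member of the SIBLING family, whose genes lie side by side. In macrophages it is both secreted, where it acts as an adhesive and chemotactic signal, and found inside the cell. The gene is low in many resting tissue macrophages and is known as a marker of macrophages in injured, fatty or tumour tissue.

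The genotype label could not be checked by the targeted gene, since Ankrd22 (chromosome 19) had 0 UMIs in both libraries. At 3 counts this allows up to 0.0270 CPM (UMIs scaled to a total of 1000000) in knockout cells, against 0.0310 CPM in wild type cells. The sorted antigen F4/80 is encoded by Adgre1, which had a UMI in 97.7% of knockout cells and 97.8% of wild type cells. The 2 libraries shared 15 cell barcodes, of which 5 held Spp1 as knockout cells and 1 as a wild type cell. Leaving them out gave Spp1 log2 ratios of 6.49 and 6.89 for the class II low and cycling cells described below, the values found with them. The median share of mitochondrial UMIs was 1.47% in knockout and 0.685% in wild type cells.

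Spp1 (ENSMUSG00000029304) lies on chromosome 5 from 104435118 to 104441050 on the plus strand (GRCm38, GENCODE release M21). An unnamed gene model on the same strand, Gm42793, lies inside it from 104435121 to 104436372 and took 87 UMIs in knockout cells and 0 in wild type cells. Spp1 itself was given 58643 UMIs in knockout cells and 475 in wild type cells. Reads in that stretch could be assigned to either gene. The 250 bases before the RefSeq start (GRCm38.p6, chr5:104434861-104435110, plus strand, 1 of 2 starts listed) are shown because Spp1 had the highest ratio between the libraries of any gene compared in class II low and in cycling cells, and the lists below include factors known at this promoter.

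Spp1 promoter: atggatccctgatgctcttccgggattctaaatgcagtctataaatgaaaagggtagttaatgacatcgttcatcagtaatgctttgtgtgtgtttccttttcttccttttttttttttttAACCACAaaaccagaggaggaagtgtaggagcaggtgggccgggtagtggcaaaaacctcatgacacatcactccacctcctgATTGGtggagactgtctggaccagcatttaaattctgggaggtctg

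Read from left to right, the capitals mark AACCACA, the core letters of a RUNX motif, whose first base lies 129 bases before the start, and ATTGG, an inverted CCAAT box, whose first base lies 46 bases before it. Both strands were searched in 32851 promoter windows of the same length. AACCACA or its reverse TGTGGTT was present in 4.40% of them, and ATTGG or CCAAT in 33.8%. Further matches were an E-box, CANNTG, 98 bases before the start (66.2% of windows), GGAAGT, an ETS core, at 111 bases (19.7%), and TTTAAA at 20 bases (12.1%). The AP-1 letters TGANTCA (6.75% of windows) did not occur in this window. None of these motifs overlaps another here, and a match of letters is a description of the sequence, not a binding site.

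Spp1 transcript was abundant in many cells of the knockout library and almost missing in the wild type library. Over all kept cells its level was 571 CPM in the knockout library (95% Poisson interval 566 to 575) and 5.32 CPM in the wild type library (4.85 to 5.82), or 3.36 CPM without 1 wild type cell that held 175 UMIs (2.99 to 3.76). At least 1 Spp1 UMI was found in 3021 of 6036 knockout cells (50.05%, with an exact binomial interval of 48.8 to 51.3%) and in 103 of 5946 wild type cells (1.73%, 1.42 to 2.10%). Cells were then thinned to 2000 UMIs each, which leaves out 45 shallower knockout and 65 wild type cells. The shares became 27.1% in knockout cells (25.9 to 28.2%) and 0.391% in wild type cells (0.248 to 0.586%). The Poisson intervals take each UMI as independent and leave out the spread between cells. In knockout cells the variance of Spp1 UMIs per cell was 61.1 times their mean. No interval covers variation between animals. Of the positive knockout cells 31.4% held 1 UMI, and the part of free RNA in these shares was not tested.

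Knockout cells did not carry Spp1 evenly. Of the 6036 cells, 3015 had 0 UMIs, 948 had 1, 540 had 2 to 4, and 286 had 5 to 9. Another 369 cells had 10 to 19 UMIs, 513 had 20 to 49, 261 had 50 to 99 and 104 had 100 or more. These bins widen with the count, and the number of cells per single UMI value fell throughout, from 948 at 1 UMI to 180 at 2 to 4, 57.2 at 5 to 9, 36.9 at 10 to 19, 17.1 at 20 to 49 and 5.22 at 50 to 99. Positive knockout cells held 19.4 UMIs on average, with a median of 5 and a maximum of 246. The 603 cells with the most Spp1 (10% of the library) held 72.2% of its Spp1 UMIs, and cells with 10 or more UMIs (20.7% of cells) held 92.7%.

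In the wild type library, Spp1 was rare in number of cells and in UMIs per cell. Of the 103 positive cells, 63 had 1 UMI, 18 had 2 to 4, 17 had 5 to 9 and 5 had 10 or more. A single class II low cell with 13368 UMIs in all held 175 of the 475 Spp1 UMIs (36.8%), and the next highest cells held 37 and 24. High Spp1 counts therefore existed in wild type cells, at 0.0841% of cells with 10 or more UMIs (0.0273 to 0.196%), against 20.7% of knockout cells (19.6 to 21.7%).

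**Figure D1:**
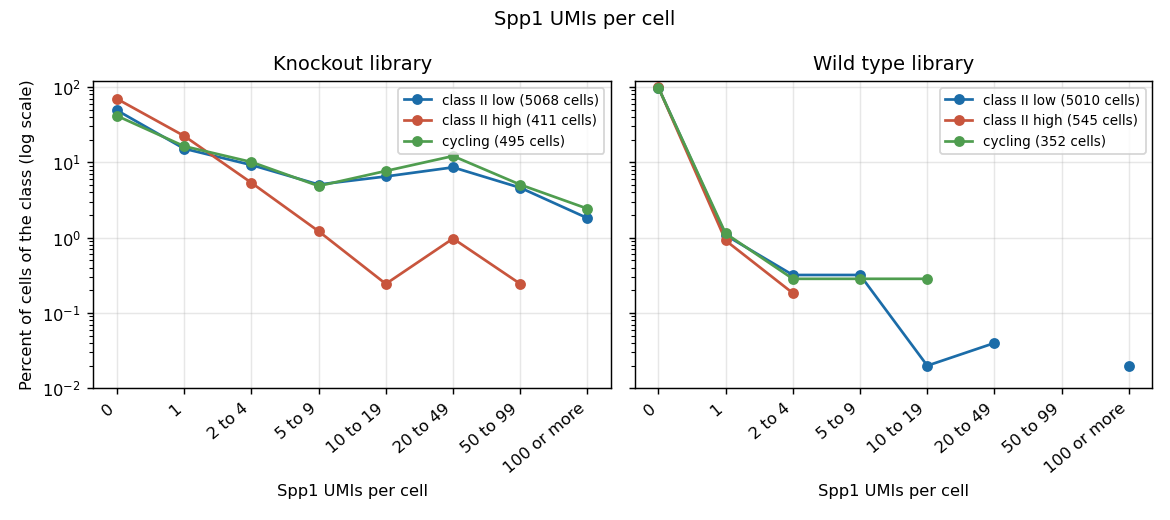
Percent of cells (y axis, log scale) by Spp1 UMIs per cell (x axis, bins) in class II low, class II high and cycling cells of the knockout library (left) and the wild type library (right); bins with no cell have no point. In knockout class II low cells the share is 5.07% at 5 to 9 UMIs and 8.58% in the wider bin of 20 to 49, while 98.2% of wild type class II low cells lie at 0.

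The cells were grouped into classes by clustering without Spp1, so that Spp1 itself did not draw the clusters. Class II low cells carried the 12 markers of large peritoneal macrophages, among them Gata6, Timd4 and Adgre1, all at 5 CPM or more in both libraries, with a summed level of 17739 CPM in knockout cells, against 17831 CPM in wild type cells. Their class II high marker sum was 338 CPM in knockout cells, against 979 CPM in wild type cells. Cells named class II high carried MHC class II genes, Ccr2 and Retnla, and cycling cells carried replication or mitosis genes. Wild type cluster 6 met 6 of 12 class II high markers and 6 of 6 Folr2 and Lyve1 macrophage markers. It took the class II high name only by the rule for ties. The libraries formed almost entirely separate clusters, so different clusters hold each class in the 2 libraries. The exceptions are cycling cluster 10 and the B-cell-like cluster, which both libraries share.

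Class II low cells, the bulk of the sort, held most Spp1 UMIs in both libraries. The level was 632 CPM in 5068 knockout cells (627 to 638) and 6.06 CPM in 5010 wild type cells (5.51 to 6.65), from 51148 and 443 UMIs. The log2 ratio with 1 CPM added to each side was 6.49. The ratio of the levels without it was 104-fold (counting interval 95.1 to 115). This interval takes the UMIs as independent and leaves out the spread between cells. In wild type class II low cells the variance of Spp1 UMIs per cell was 75.5 times their mean. Spp1 ranked first of the 5016 genes that reached 20 CPM in either library, where the median log2 ratio was 0.22 and 1.81% of genes were higher by 2-fold or more and 2.05% lower by as much. Without the single wild type cell that held 175 UMIs the wild type level was 3.67 CPM (3.24 to 4.13) and the log2 ratio 7.08. Of knockout class II low cells 50.9% held a UMI, and of wild type ones 1.80%. After thinning the shares were 28.5% in knockout (27.3 to 29.8%) and 0.384% in wild type class II low cells (0.231 to 0.598%). Median depths of these cells were 15204 UMIs in knockout cells, against 14071 UMIs in wild type cells.

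Spp1 varied between the class II low clusters of each library. In the knockout library it was 791 CPM in cluster 0 (2201 cells, led by Ccl2, Atf3, Spp1 itself, Il6, Osm and Cxcl2) and 723 CPM in cluster 5 (943 cells). It was 340 CPM in cluster 9 (380 cells, led by the scavenger receptor gene Marco) and 338 CPM in cluster 3 (1535 cells). The intervals of clusters 0 and 5 do not meet, while those of clusters 9 and 3 overlap (326 to 355 and 330 to 346 CPM). Cells with 10 or more Spp1 UMIs made up 29.6% of cluster 0, 23.9% of cluster 5, 14.0% of cluster 9 and 10.4% of cluster 3. The wild type clusters were at 1.46 CPM in cluster 4, 4.23 CPM in cluster 2, 5.26 CPM in cluster 11 and 9.60 CPM in cluster 1. Cluster 1 held the cell with 175 UMIs, and without it the level there was 4.30 CPM (3.62 to 5.07), between those of clusters 2 and 11. Every knockout class II low cluster was thus above every wild type one.

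Within knockout class II low cells, the Spp1 level in CPM moved with depth and with the mitochondrial share. Over 4 equal groups of cells from the shallowest to the deepest, the level was 378, 538, 706 and 726 CPM. Over 4 groups from the lowest to the highest mitochondrial share it was 484, 599, 693 and 771 CPM. The share of cells with 10 or more Spp1 UMIs was 15.3, 22.0, 24.9 and 23.7% over these mitochondrial groups, so it did not rise in the last. That last group had a median depth of 13545 UMIs. The part of depth or of the mitochondrial share in the spread between cells was not tested. The lowest of these 8 levels is above the highest of the same 8 wild type levels, 12.7 CPM, which was 1.31 CPM without the cell with 175 UMIs.

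Cycling cells of the knockout library held Spp1 at a somewhat lower level than its class II low cells. The level was 501 CPM in 495 knockout cells (489 to 513) and 3.23 CPM in 352 wild type cells (2.09 to 4.77), from 6439 and 25 UMIs. The log2 ratio was 6.89, and the ratio without the added 1 CPM was 155-fold (105 to 240). Spp1 ranked first of 5390 genes here, beside 2.19% of genes higher by 2-fold or more and 2.95% lower by as much. After thinning, 31.4% of knockout (27.3 to 35.7%) and 0.855% of wild type cycling cells (0.177 to 2.48%) held a UMI, against 58.6% and 1.99% unthinned. Median depths were 24638 UMIs in knockout and 21970 UMIs in wild type cycling cells. The cycling classes are also unlike in makeup. Their class II high marker sum was 681 CPM in knockout and 3102.5 CPM in wild type cells. The Folr2 and Lyve1 macrophage markers summed to 86.3 and 289.6 CPM. The part of this in the ratio was not tested.

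The cycling clusters differed. Knockout cluster 7 met 16 S phase and 6 G2 and mitosis markers and had 568 CPM (553 to 582). Cluster 10 met 15 S phase and 18 G2 and mitosis markers in each library, so it is not made of mitotic cells alone. Its 82 knockout cells had 207 CPM (189 to 226). In the wild type library the S phase cluster 12 had 4.43 CPM (2.29 to 7.73) and cluster 10 had 2.62 CPM (1.39 to 4.47), and these intervals overlap. Cluster 10 was a larger part of the wild type cycling class, 223 of 352 cells, than of the knockout one, 82 of 495. The log2 ratio was 6.73 with S phase clusters alone and 5.85 with cluster 10 alone.

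Cells named class II high were the macrophages with the least Spp1 in the knockout library. They are given by cluster number, because the clusters of this name differ between the libraries: wild type cluster 6 had 5 Folr2 and Lyve1 macrophage markers and 3 class II markers among its 10 leading genes, while knockout cluster 8 had 2 and 7. The 410 knockout cells of cluster 8 had 48.7 CPM (43.9 to 53.8) from 383 UMIs. The 542 wild type cells of cluster 6 had 0.852 CPM (0.343 to 1.76) from 7 UMIs. The log2 ratio of cluster 8 over cluster 6 was 4.74, and the ratio without the added 1 CPM was 57.1-fold (27.4 to 143). The part of the unlike makeup of the clusters in this difference was not tested. Because the wild type level lies under the 1 CPM added, the log2 ratio depends on that choice, and it ran from 3.20 with 5 CPM added to 5.68 with 0.1 CPM added.

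Most positive cells of cluster 8 held few Spp1 UMIs. A UMI was found in 30.2% of cluster 8 and in 1.11% of cluster 6, at median depths of 18331 and 14764 UMIs. B cells are not known for this gene, and barcodes with B cell markers held it in 4 of 39 knockout cases (10.3%, median depth 3752 UMIs, at most 1 UMI each). Among wild type cases 0 of 39 held it (median depth 4562 UMIs), for which the exact binomial interval reaches 9.03%. After thinning, the share was 3.69% in cluster 8 (2.08 to 6.01%) and 6.06% in knockout B-cell-like barcodes (2 of 33, 0.743 to 20.2%), and these intervals overlap. The B-cell-like level was 22.3 CPM with an interval from 6.09 to 57.2 CPM, which holds the cluster 8 level. These barcodes also carried 8 T cell markers, and the part of free RNA in the counts of cluster 8 was not tested. Of the 383 UMIs in cluster 8, 54.8% lay in 6 cells with 10 or more.

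**Figure D2:**
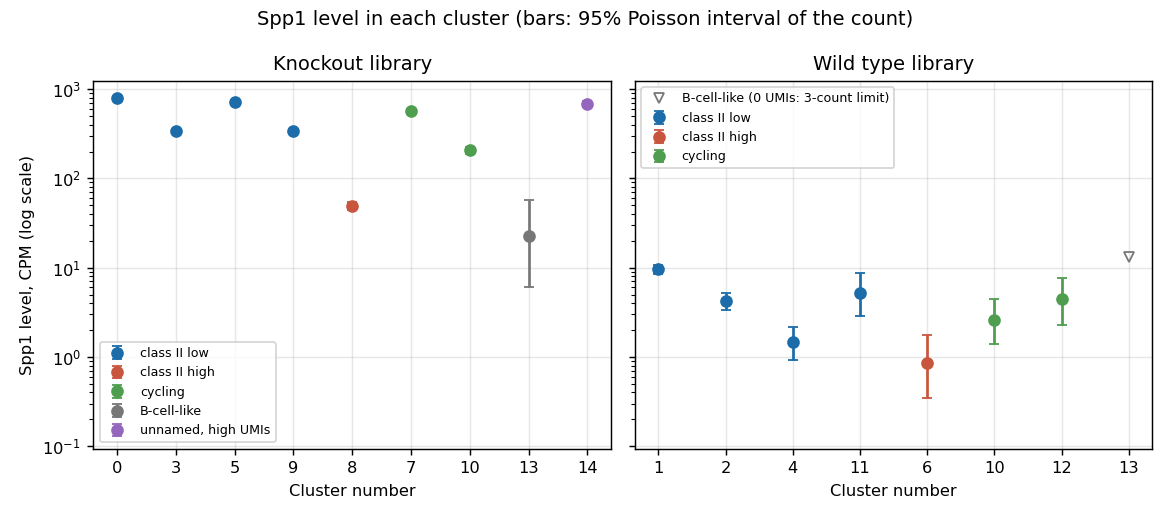
Spp1 level in CPM (y axis, log scale) in each cluster of the knockout library (left) and the wild type library (right), coloured by class, with 95% Poisson intervals of the count; an open triangle marks the 3-count limit of a cluster with 0 UMIs. Knockout clusters span 22.3 to 791 CPM and the wild type clusters with a UMI span 0.852 to 9.60 CPM.

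The order of the classes differed between the level and the share of cells with 10 or more UMIs. By level, knockout class II low cells (632 CPM) stood above cycling (501 CPM) and class II high cells (48.7 CPM). Their counting intervals did not overlap, but these leave out the spread between cells. The variance of Spp1 UMIs per cell was 60.5 times the mean in class II low and 64.9 times in cycling cells. The order of these classes by level is therefore not settled by the intervals. By share with 10 or more UMIs, cycling cells came first (27.3%, 23.4 to 31.4%), then class II low (21.5%, 20.4 to 22.6%) and class II high cells (1.46%, 0.538 to 3.15%). Cycling cells were deeper, and after thinning the intervals of the cycling and class II low shares overlapped. In the wild type library class II low cells (5.51 to 6.65 CPM) lay above cycling cells (2.09 to 4.77 CPM) only with the cell that held 175 UMIs, and without it their interval was 3.24 to 4.13 CPM. Wild type cells named class II high (0.341 to 1.75 CPM) lay below both.

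Markers of some other cell types were at or near 0 beside these levels, and those of others were not. In class II low cells the summed level of the 9 mesothelial markers was 0.0495 CPM in knockout cells, against 0.0410 CPM in wild type cells, with Msln, Krt8, Wt1, Upk1b, Lrrn4 and Muc16 at 0 in both. The 6 fibroblast markers summed to 0.0371 and 0.0137 CPM, with Col1a1, Col1a2, Col3a1, Lum and Pdgfra at 0 in both. The 8 T cell markers summed to 0.767 and 0.779 CPM in class II low cells. The 7 neutrophil markers summed to 86.5 and 89.3 CPM, with Ly6g at 0 in both libraries, and the 6 monocyte markers to 181 and 142 CPM, with Ly6c2 at 0. In each library 2 neutrophil and 2 monocyte markers were above 5 CPM. The 9 B cell markers summed to 34.3 and 47.5 CPM, with 1 above 5 CPM in each library. The neutrophil, monocyte and B cell sums lay above the wild type Spp1 level of 6.06 CPM. The 5 erythroid markers summed to 92.9 CPM in knockout and 30.04 CPM in wild type class II low cells, and their part in the Spp1 difference was not tested.

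Next, genes whose counts moved with Spp1 from cell to cell inside the knockout library were listed. For 9596 genes seen in at least 5% of knockout cells, Pearson's r with Spp1 was taken over the 6036 cells on log2(UMIs per 10000 + 1). These cells share 1 library, free RNA and a wide range of depth, so r describes them and is no test. All values were modest: the highest was 0.28, the lowest -0.34 and the median near 0. At the upper end 8 genes (0.0834%) reached 0.2, and 3 (0.0313%) reached -0.2. Spp1's own r with depth was 0.14 over all knockout cells and 0.15 in class II low cells. With the mitochondrial share it was 0.03 and 0.02. In sparse counts most values of this size are no finding, and the genes are named by their rank alone.

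The gene with the highest r was Lrg1, a secreted leucine-rich glycoprotein (0.28 over all knockout cells, 0.26 in class II low cells). Then came Pi16, a peptidase inhibitor (0.27), Hdc, the enzyme that makes histamine (0.25), and Vmn2r26 (0.25), a vomeronasal receptor whose counts are uncertain because of close paralogs. Serpinb1a, an inhibitor of neutrophil proteases (0.25, with close paralogs too), Ptgis, prostacyclin synthase (0.24), Srgn, the granule proteoglycan serglycin (0.22), and Fxyd5, a regulator of the sodium pump (0.21), followed. Ppib, a folding enzyme of the endoplasmic reticulum (0.20), the calcium-binding S100a6 (0.20), the tetraspanin Cd9 (0.19) and Ltbp1, which binds latent TGF-beta (0.19), made up the 12.

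The lowest r was that of Apoe, the lipid carrier apolipoprotein E (-0.34 over all knockout cells, -0.39 in class II low cells). Next were Pltp, the phospholipid transfer protein (-0.24), and Fcna, the lectin ficolin A (-0.21). Cd52, a small surface glycopeptide (-0.20), Lyz1, a lysozyme with a near-identical copy (-0.19), Anxa5, a phosphatidylserine binder (-0.18), Chil3, a chitinase-like secreted protein with close paralogs (-0.18), and Cd74, the MHC class II invariant chain (-0.17), closed the list of 8. Chil3 is thus a gene that, like Spp1, was higher in the knockout library (358 CPM in knockout and 14.2 CPM in wild type class II low cells, log2 ratio 4.56), yet was lower in the knockout cells with more Spp1.

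The 20 genes were chosen for their r over these knockout cells, so values in subsets of the same cells describe them and add no support. Over the 4 knockout class II low clusters, Apoe ran from -0.41 to -0.26 and Lrg1 from 0.21 to 0.26, and Cd9 was the 1 gene of the 20 to change sign, in cluster 0. In the 495 cycling cells Lrg1 had an r of 0.33, Apoe -0.32 and Chil3 -0.33. In the 411 class II high cells, 5 of the 20 had the other sign, namely Apoe (0.04), Pltp (0.04), Cd74 (0.04), Cd52 (0.002) and Fxyd5 (-0.01), while Hdc had 0.235 and Pi16 0.21.

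The wild type library, which had no part in the choice of these genes, gave the same signs with small values. Over 5010 wild type class II low cells, 90 of them positive, the 12 genes had r from 0.04 to 0.07 and the 8 genes from -0.10 to -0.02, where 51.2% of 8830 genes were above 0 and the central 95% of genes lay between -0.03 and 0.04. Each of the 12 was above 0 and each of the 8 below 0. Such values rest on few positive cells and are weak, and that of Chil3 (-0.02) lay within the central range of all genes.

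**Figure D3:**
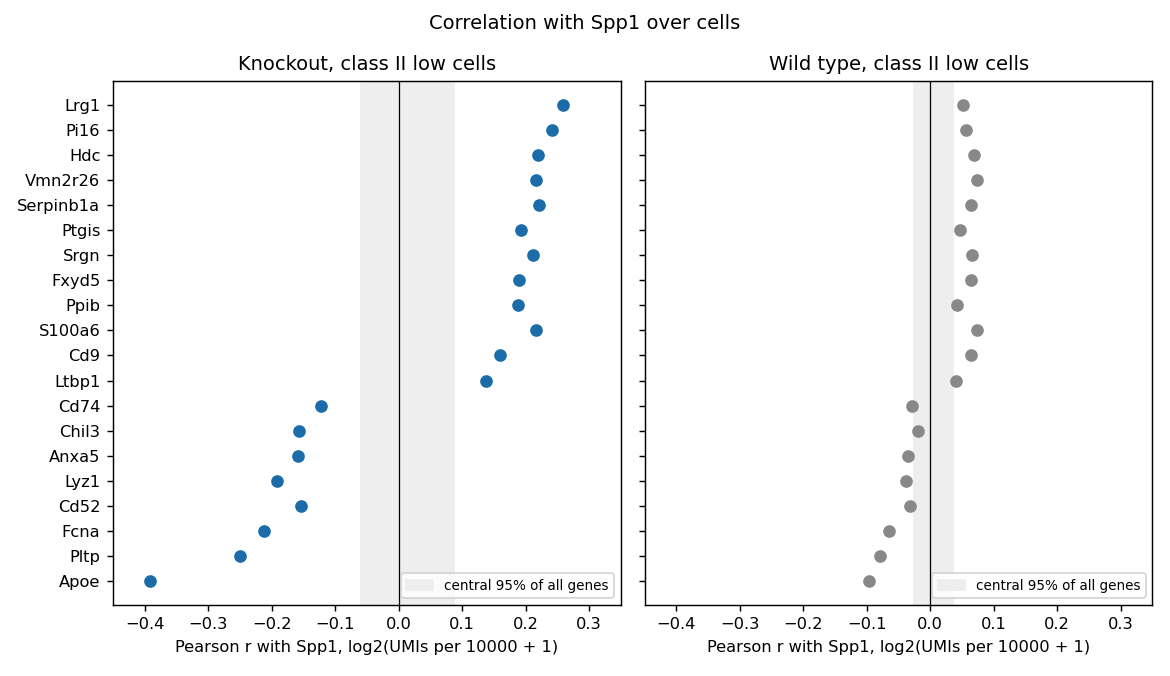
Pearson r with Spp1 over class II low cells (x axis) for the 12 genes of highest and the 8 of lowest r (y axis) in the knockout library (left, 5068 cells) and the wild type library (right, 5010 cells); the grey band is the central 95% of all genes. Knockout values run from -0.39 to 0.26 and wild type values from -0.10 to 0.07, on the same side of 0 for all 20 genes.

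Levels of these genes over cells grouped by Spp1 restate in the knockout library the r that chose them, and are given to show their size. Knockout class II low cells were divided into 2486 with 0, 1493 with 1 to 9 and 1089 with 10 or more Spp1 UMIs, at median depths of 13982, 15706 and 17541 UMIs. Wild type cells were divided into 4920 with 0, 70 with 1 to 4 and 20 with 5 or more, at median depths of 14028, 16582 and 17730 UMIs. Lrg1 was at 651, 709 and 921 CPM over the knockout groups and at 273, 340 and 439 CPM over the wild type groups. Wild type cells with the most Spp1 thus held less Lrg1 than knockout cells with none.

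Hdc was at 76.5, 96.6 and 134 CPM over the knockout groups and at 45.1, 73.8 and 98.5 CPM over the wild type groups. S100a6 was at 2230, 2345 and 2827 CPM over the knockout groups and at 771, 1018 and 1534 CPM over the wild type groups. Both went up with Spp1 in each library, from a lower start in the wild type one. Serpinb1a started at like levels, with 417, 462 and 560 CPM over the knockout groups and 468, 590 and 754 CPM over the wild type groups.

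Apoe was at 12828, 9523 and 5284 CPM over the knockout groups and at 16806, 13003 and 8920 CPM over the wild type groups. Fcna was at 499, 433 and 301 CPM over the knockout groups and at 754, 624 and 388 CPM over the wild type groups. Both were lower with each step of Spp1. Pltp was at 612, 525 and 380 CPM over the knockout groups and at 587, 484 and 284 CPM over the wild type groups. Chil3 was at 475, 350 and 159 CPM over the knockout groups, and at 14.4, 4.92 and 5.63 CPM over the wild type groups, the last from 2 UMIs (0.682 to 20.3 CPM). Over the wild type groups 9 of the 12 genes were higher and 6 of the 8 lower with each step, and Vmn2r26, Ptgis, Fxyd5, Cd52 and Chil3 were not. Depth moved with these groups, and its part in the steps was not tested.

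**Figure D4:**
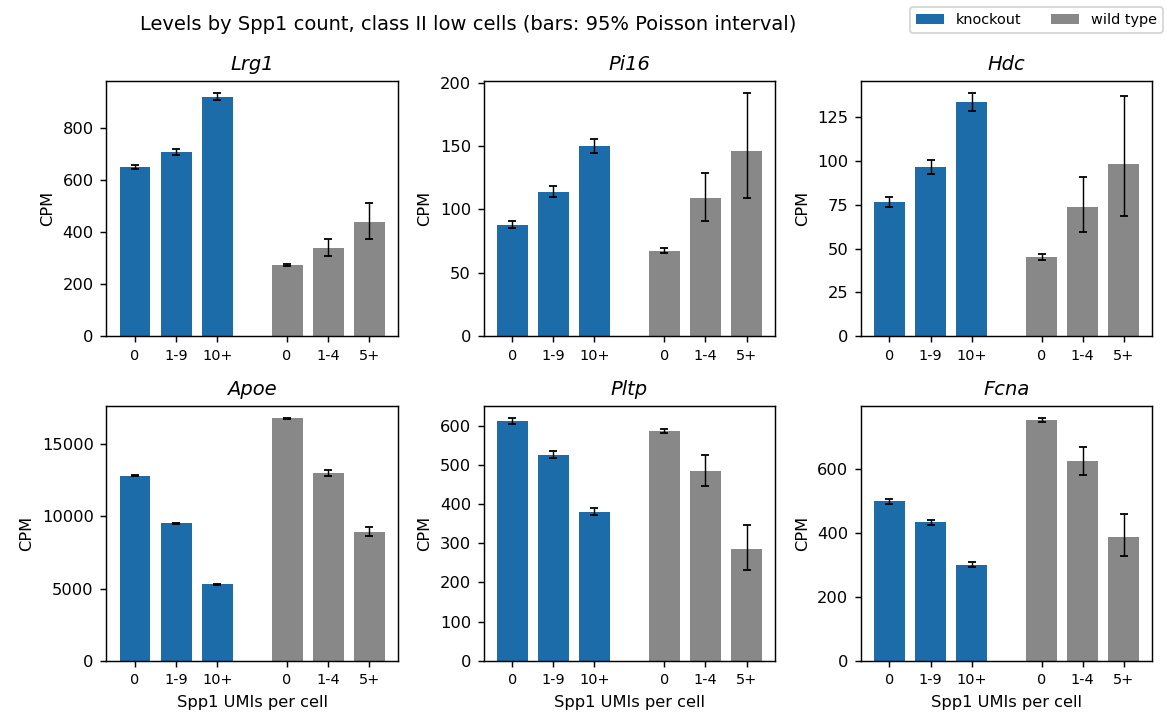
Level in CPM (y axes, from 0) of Lrg1, Pi16 and Hdc (top) and Apoe, Pltp and Fcna (bottom) in class II low cells grouped by Spp1 UMIs per cell (x axes), knockout in blue on the left and wild type in grey on the right, with 95% Poisson intervals of the count. In the genes shown, those at the top are higher and those at the bottom lower with each step of Spp1 in both libraries; Apoe ends at 5284 CPM in knockout cells, against 8920 CPM in wild type cells.

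Osteopontin needs receptors, and 10 receptor genes were looked up. In class II low cells 7 were measured at a mean of 5 CPM or more. Of them 2 were higher in the knockout library by 1.5-fold or more, 0 were lower, and the median log2 ratio was 0.24. Over all 8438 genes measured so, 12% were at least 1.5-fold higher and 3.38% lower, with a median of 0.20. Under TMM, which scales the libraries by the bulk of their genes, all log2 ratios of class II low cells shift by -0.28, so that those between 0 and that size turn below 0. The list's median was then -0.03, with 2 members higher and 1 lower. No 1.5-fold share over all genes was taken under TMM, here or for the lists below. The shift can only leave as many or fewer members higher and as many or more lower. Counts under TMM therefore show the dependence on scaling and are no result about a list. Itgb1, a beta chain shared by several integrins that bind osteopontin, was at 1361 CPM in knockout cells, against 648 CPM in wild type cells (log2 ratio 1.07), and Itga4, its alpha-4 partner, at 238 and 121 CPM (0.97).

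Cd44, the hyaluronan receptor, was at 98.8 CPM in knockout cells, against 146 CPM in wild type cells, a log2 ratio of -0.56 and thus short of 1.5-fold. The alpha-v chain gene Itgav was at 18.1 CPM in knockout cells, against 15.2 CPM in wild type cells (0.24), and its partner gene Itgb3 at 5.46 and 5.72 CPM (-0.06). Itga5 was at 8.62 and 6.77 CPM (0.31) and Itga9 at 15.05 and 16.4 CPM (-0.12). Itgb5 was under 1 CPM in both libraries, and Itga8 and Itgb6 had 0 UMIs in class II low cells. Across knockout cells the highest r of a receptor gene with Spp1 was that of Itgb1 (0.14), and Cd44 had -0.09.

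Of 11 genes of proteases that cut osteopontin (the receptor of urokinase among them), 3 were measured. Of these 0 were 1.5-fold higher or lower (12% and 3.38% of all genes), with a median log2 ratio of -0.09 (-0.38 under TMM, with 1 lower). Plaur, that receptor, was at 243 CPM in knockout cells, against 302 CPM in wild type cells. The cathepsin genes Ctsd and Ctsb were at 1025 and 1104 CPM in the knockout and at 1093 and 1152 CPM in the wild type library.

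Of 8 genes for modification or binding of osteopontin, 6 were measured, 1 was at least 1.5-fold higher and 1 lower (12% and 3.38% of all genes). The median log2 ratio was 0.21 (-0.07 under TMM). The one higher was Fam20c, the kinase that phosphorylates secreted proteins including osteopontin, at 104 CPM in knockout cells, against 53.9 CPM in wild type cells (log2 ratio 0.93). The one lower was Tgm2, a transglutaminase that crosslinks it, at 6.34 CPM in knockout cells, against 10.7 CPM in wild type cells (-0.68). Fibronectin, which it can bind, had its gene Fn1 at 8319 CPM in knockout cells, against 7454 CPM in wild type cells (0.16).

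The neighbours of Spp1 on chromosome 5 showed no difference of its size. The other SIBLING genes Ibsp, Mepe, Dmp1 and Dspp, which lie 110 to 264 kb before the Spp1 start and encode bone and tooth matrix proteins, had 0 UMIs in both libraries. Pkd2, the polycystin gene that starts 24.3 kb after it, was at 8.41 CPM in knockout and 4.76 CPM in wild type class II low cells (log2 ratio 0.71). It was 1 of 5 measured list members and the one at least 1.5-fold higher (12% of all genes), and under TMM 0 were. Hsd17b11, Nudt9 and Abcg3 had log2 ratios of 0.33, 0.16 and 0.00.

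Of 28 transcription factors known at the Spp1 promoter, 22 were measured, 0 were at least 1.5-fold higher and 3 lower (12% and 3.38% of all genes). Their log2 ratios ran from -2.10 to 0.56, with a median of -0.11 (-0.38 under TMM, with 5 lower). The 3 lower were Runx1, a RUNX factor, at 13.8 CPM in knockout and 21.4 CPM in wild type class II low cells (-0.60), the AP-1 gene Fosl2 at 25.5 and 62.5 CPM (-1.26), and the ETS gene Ets2 at 25.1 and 111 CPM (-2.10). Bach1, a haem-responsive repressor, was at 143 CPM in knockout cells, against 96.8 CPM in wild type cells (0.56), and Hif1a at 43.1 and 39.3 CPM (0.13). No factor reached an r of 0.2 or -0.2 with Spp1 in knockout cells, and 4 of 23 were above 0, against 4285 of 9596 over all genes. Fosl2 and Ets2, like the list members below that are not among the 4 of highest absolute r, were chosen after their values were seen, because they passed the fold.

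Genes that accompany Spp1 in lipid-laden macrophages of other tissues had no common direction under the main scaling. Of 24 listed, 21 were measured, 3 were at least 1.5-fold higher and 3 lower (12% and 3.38% of all genes). The median log2 ratio was 0.04 (-0.24 under TMM, with 0 higher and 5 lower). The higher ones were Cd63, Capg and Anxa2 (log2 ratios 0.60, 0.62 and 0.78), and the lower ones Trem2, the lipid receptor (33.1 CPM in knockout and 55.6 CPM in wild type class II low cells), Apoe and Vim. Cd36, a fatty acid transporter, had a log2 ratio of -0.06 and an r of -0.14, and the fatty acid binder Fabp4 a log2 ratio of -0.17 and an r of 0.14.

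Of 13 genes of alternative activation, 7 were measured, 2 were at least 1.5-fold higher and 2 lower (12% and 3.38% of all genes). The median log2 ratio was 0.02 (-0.23 under TMM, with 2 higher and 3 lower). The higher ones were Chil3, described above, and Arg1, arginase, at 205 CPM in knockout cells, against 62.9 CPM in wild type cells (log2 ratio 1.69). The lower ones were Retnla, a resistin-like secreted protein, at 89.4 CPM in knockout cells, against 606 CPM in wild type cells (-2.75), and Ccl24, a chemokine that draws eosinophils, at 285 and 993 CPM (-1.80). Arg1 had an r of -0.04 with Spp1 over knockout cells and Retnla -0.14.

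Actin, adhesion and S100 genes were the list with the highest median r with Spp1. Their median r was 0.09 over 19 genes, with 15 above 0, where the median of all genes was -0.004 and 4285 of 9596 were above 0. Of the 19, 5 were at least 1.5-fold higher (S100a4, S100a6, Rhoc, Coro1a and Anxa2) and 2 lower (Vim and Lgals1), against 12% and 3.38% of all genes. The median log2 ratio was 0.16 (-0.13 under TMM, with 4 higher and 3 lower). S100a4, a calcium-binding protein tied to cell motility, was at 1168 CPM in knockout and 558 CPM in wild type class II low cells and had an r of 0.18. S100a10 was at 1124 CPM in knockout cells, against 1008 CPM in wild type cells, also with an r of 0.18.

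Of 17 hypoxia and glycolysis genes, 14 were measured, 1 was at least 1.5-fold higher and 3 lower (12% and 3.38% of all genes). The median log2 ratio was 0.22 (-0.06 under TMM, with 0 higher and 4 lower) and the median r was 0.04. The higher one was Egln3, an oxygen-sensing hydroxylase gene induced by hypoxia, at 39.1 CPM in knockout and 22.1 CPM in wild type class II low cells (0.79). The lower ones were Hk2, Vegfa and Hilpda, with log2 ratios of -0.89, -3.67 and -1.76. Gapdh and Aldoa, glycolytic enzymes with pseudogenes, had log2 ratios of 0.49 and 0.48 and r of 0.17 each.

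Inflammatory cytokine and chemokine genes lay opposite to Spp1 between the libraries but had r values near 0 with it between cells. Of 18 listed, 13 were measured, 0 were at least 1.5-fold higher and 11 lower (12% and 3.38% of all genes). The median log2 ratio was -1.95 (-2.23 under TMM, with 12 lower). Il1a was at 3.92 CPM in knockout and 30.04 CPM in wild type class II low cells (-2.66), and the chemokine gene Ccl3 at 13.01 and 80.9 CPM (-2.55). Osm, encoding oncostatin M, was at 54.6 CPM in knockout cells, against 153 CPM in wild type cells (-1.47), while Ccl6 was at 1341 and 1138 CPM (0.24). Over knockout cells the list's median r with Spp1 was -0.02, and 4 of 10 genes were above 0, against 4285 of 9596 over all genes. Even so, Ccl2, Il6, Osm and Cxcl2 were among the leading genes of knockout cluster 0, the cluster with the highest Spp1 level (791 CPM).

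Cell cycle genes had r values near 0 with Spp1 in knockout cells. The 9 measured G1/S and S phase genes had a median log2 ratio of 0.50 in class II low cells and a median r of -0.01. Mcm4, Mcm6 and Mcm7 were at least 1.5-fold higher and 0 lower, against 12% and 3.38% of all genes. Under TMM 0 of these genes were higher. Mcm6, of the replicative helicase, was at 17.0 CPM in knockout cells, against 9.70 CPM in wild type cells, with an r of -0.01. Of the G2 and mitosis genes only Cenpa was measured, with a log2 ratio of -0.11 and an r of -0.04.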

How the data were processed

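Sorted F4/80+ peritoneal cells gave 1 library per genotype with a 10x Genomics 3' v3 kit, per the labels' protocols. The deposited values are raw UMI counts per gene and barcode, and per the file headers the authors used Cell Ranger 6.1.2. The submitters' processing notes also name bcl2fastq, Seurat 4.1.0 and mm9, without a role. All 55450 feature identifiers are in GENCODE release M21 (GRCm38), which was used for positions. Depth was 110956482 UMIs over 6706 knockout barcodes and 96869041 UMIs over 6315 wild type barcodes.

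A cell needed at least 500 genes and at most 10% mitochondrial UMIs, which left out 346 knockout and 56 wild type barcodes. Scrublet's automatic threshold called 1 barcode per library, too few to have worked, so the highest scores were removed at 0.8% per 1000 barcodes (324 knockout, 313 wild type). Clusters came from 2000 variable genes without Spp1, 30 principal components and the Leiden method at resolution 1 on a graph of 15 neighbours, with no integration. A cluster of a library with at least 20 cells was named from at least 3 markers of a list at 2-fold or more and in at least 10% of cells, or as class II low with at least 3 of its markers in 25% of cells. These thresholds were set after the data were seen, and a tie of class II high with another list went to class II high. A cluster with over 2-fold the median UMIs of its library was left unnamed.

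UMIs were summed per class and scaled to CPM. Log2 ratios are knockout over wild type with 1 CPM added, called at 2-fold for genes at 20 CPM in the higher library, and at 1.5-fold for lists, whose members need a mean of 5 CPM. Intervals (95%) are exact Poisson, binomial or conditional ones and cover counting error only. The Poisson and conditional ones take UMIs as independent and leave out the spread between cells. No test was made. Correlations used log2(UMIs per 10000 + 1). The genes named are the 12 of highest and 8 of lowest r, leaving out mitochondrial, ribosomal, immunoglobulin and sex-linked genes and unnamed models, all receptor genes, and up to 4 members per list by absolute r. The members, the 12 gene lists and the 18 marker lists were chosen with earlier results of these data known. Promoter bases are from RefSeq (GRCm38.p6). The ratio and correlation steps were tested on simulated data. Alternatives tried were scaling, added CPM, thinning depth, cell filters, doublets, cluster resolution and the form of correlation. Tools were Python 3.11.15, scanpy 1.11.5, leidenalg 0.10.2, scipy 1.17.1, R 4.3.3 and edgeR 4.0.16 (for TMM factors).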

Additional observations from a re-analysis of the deposited data

Results flagged for a closer look

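Spp1 was also found in knockout barcodes that the comparisons did not use. The 670 knockout barcodes left out by the filters had 525.6 CPM of Spp1, against 1.46 CPM in the 369 wild type barcodes left out. A UMI was seen in 37.0% of these knockout barcodes and in 1.63% of the wild type ones. Those removed as doublets had 546 CPM in the knockout (324 barcodes) and 1.476 CPM in the wild type library (313 barcodes). Cluster 14, left unnamed because its 23 knockout cells had a median of 45937 UMIs, had 681.7 CPM of Spp1 (631 to 735), and 20 of its 23 cells were positive. No wild type cluster matches it.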

How the results depend on the processing

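No Spp1 ratio changed sign under the alternatives tried for it, nor did a named gene's ratio past 1.5-fold or r past 0.2. Smaller ratios did: under TMM and median-of-ratios scaling the medians of 7 of the 8 lists above 0 turned below 0, and the median of all genes in class II low cells was -0.06, against 0.22. Of the values that answer a comparison, 56 stayed within their limit and 28 moved past it. The limit was the counting interval, or 1.5-fold for the number of genes past an r of 0.2 or -0.2. The cause of the moves was not tested beyond what each setting does. In class II low cells the Spp1 log2 ratio (6.49) was 6.22 under TMM and under median-of-ratios scaling, 6.68 with 0.1 CPM added and 5.85 with 5 CPM added. Without the wild type cell of most Spp1, an alternative added after the data were seen, it was 7.08. In the cells named class II high, whose clusters are unlike in the 2 libraries (4.75), it was 5.69 with 0.1 and 3.20 with 5 CPM added, 3.97 without the top 5% of cells by UMIs, 5.86 at resolution 0.5, 5.43 with classes cut per cell and, added later, 6.02 with the high-UMI cluster included. In cycling cells (6.89) it was 5.94 with 5 CPM added and 5.85 in cluster 10 alone, also added later. Thinned to 1000 and to 5000 UMIs, the share with a UMI was 22.0% and 38.2% in knockout and 0.220% and 1.04% in wild type class II low cells, and 20.8% and 38.0% in knockout cycling cells (26.9% at 2000 with classes cut per cell). In knockout class II high cells it was 10.7% at 5000 UMIs, 6.25% at resolution 0.5 and 6.50% with the high-UMI cluster; in wild type ones it was 0 at 1000 UMIs. UMIs per positive knockout cell (19.4) were 3.98 after thinning and 19.8 in class II low cells alone. The 11 genes past 0.2 or -0.2 became 1 without the log and 4 after thinning to 5000 UMIs; with Spearman's rho there were 11, of which 10 were shared, and in class II low cells alone 11, of which 9 were shared. TMM moved the counts of genes at least 2-fold higher and lower in class II low cells to 45 and 165, against 91 and 103. In cycling cells these were 72 and 205, against 118 and 159. No paired analysis was possible because each genotype has 1 library. For the same reason no library could be left out. The wild type values of class II high and cycling cells rest on 7 and 25 UMIs, and 175 of the 443 UMIs of wild type class II low cells came from 1 cell.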
